A study of Mus musculus with 3 samples.

Results

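The 8 genes described here encode MHC class I molecules and part of the machinery that loads them with peptide. They are the heavy chain genes H2-D1 (ENSMUSG00000073411), H2-K1 (ENSMUSG00000061232), H2-Q7 (ENSMUSG00000060550) and H2-T23 (ENSMUSG00000067212), the light chain gene B2m (ENSMUSG00000060802), the peptide transporter gene Tap1 (ENSMUSG00000037321), and the immunoproteasome genes Psmb8 (ENSMUSG00000024338) and Psmb9 (ENSMUSG00000096727). They were picked by symbol from the 32285 genes of the count tables, and each symbol matched 1 row.

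A class I molecule is a heavy chain held together with B2m and filled with a short peptide in the endoplasmic reticulum. Proteasomes cut the peptides in the cytosol, and the transporter formed by Tap1 and Tap2 carries them across the membrane. In immune cells and after interferon, the subunits Psmb8 and Psmb9 take the places of constitutive proteasome subunits, and the heavy chain genes are induced through interferon, NF-kappa-B and NLRC5 response elements near their start sites. Most nucleated cells carry class I at the surface, at levels that differ widely between tissues, and embryonic cells are known for low levels.

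RNA of single cells was sequenced from the mandibular condyle, whose cartilage faces the temporomandibular joint, in C57BL6 mice of wild-type genotype. The study set 3 stages side by side: E16.5, when the upper joint cavity forms, P0, when the joint is first used, and adults of 13 weeks (13w). Condyles of 7 to 20 mice were pooled for each stage, digested with collagenase and dispase, sorted for live Calcein-positive and DAPI-negative cells, and made into 1 droplet library per stage with the 10x Genomics 3′ chemistry. With 1 library per stage there is no replicate, so age, pool and library cannot be told apart, no test between stages exists, and each interval printed is a 95% interval that covers counting error only.

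A barcode was kept if it had 500 genes or more and no more than 10% of its UMIs (unique molecular identifiers, each a counted transcript) from mitochondrial genes. This left 4562 of 5458 barcodes in the E16.5 library, 3999 of 4853 in the P0 library and 8028 of 8899 in the adult library. Between 8 and 14 kept barcodes were shared by any 2 libraries. Cells without a UMI of the leucocyte gene Ptprc or the endothelial gene Pecam1 were split by Col9a1, a cartilage collagen gene. Those with at least 3 Col9a1 UMIs per 10000 are called Col9a1-high (970, 1640 and 1582 cells, in the order E16.5, P0, 13w used throughout), and the rest Col9a1-low (3222, 2136 and 6015 cells). Cells with a Ptprc UMI (144, 16 and 331) served as the leucocyte reference, and cells with Pecam1 but no Ptprc (226, 207 and 100) were kept apart. Median depth was 40041, 35960 and 23757.5 UMIs in Col9a1-high cells, 15024.5, 11766 and 9585 in Col9a1-low cells, and 10766.5, 10402 and 8649 in Ptprc-positive cells.

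The classes matched their defining markers, in part by construction, since Col9a1, Ptprc and Pecam1 are in the chondrocyte, leucocyte and endothelial lists. The summed level of 13 chondrocyte genes was 30284, 48122 and 64569 CPM (UMIs per 1000000 of a class) in Col9a1-high cells and 1335, 2321 and 7777 CPM in Col9a1-low cells. The 9 leucocyte genes summed to at least 5259 CPM in Ptprc-positive cells and to at most 68.0 CPM in either Col9a1 class. The 8 endothelial genes summed to at least 561 CPM in Pecam1-positive cells and to at most 18.4 CPM in the Col9a1 classes. Ptprc-positive cells were not free of cartilage transcript, since the chondrocyte genes summed to 1065, 10619 and 9165 CPM in them. Pecam1-positive cells held more of it, at 16748, 38496 and 20612 CPM. The Col9a1-low class was mixed. In it fibroblast genes summed to 6869, 12720 and 34325 CPM and osteoblast genes to 538, 447 and 6447 CPM. Genes of mural (vessel wall) cells summed to 123, 497 and 245 CPM and muscle genes to 34.9, 16.4 and 2.60 CPM. Col9a1-high cells also held genes of other lists. In them fibroblast genes summed to 3308, 8677 and 32014 CPM and osteoblast genes to 2925, 2927 and 40668 CPM. The make-up of both classes thus differed between the libraries, and its part in the stage ratios was not tested.

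Levels are CPM of summed UMIs, and because the chemistry counts transcript ends, they are not ranked between genes. A comparison was read for a gene only where the larger of its sums reached 10 CPM. The gene was then called higher or lower at a ratio of 2 or more if the counting interval left out 1. The heavy chain genes form a sequence family. Of the 90-base words in the last 500 bases of their transcripts, 0% of H2-D1, 0.151% of H2-K1, 4.73% of H2-Q7 and 13.4% of H2-T23 words recurred in another gene, so the H2-Q7 and H2-T23 counts are the least certain of the 4.

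Several members were high in the same libraries and cell classes, so the sequences just upstream of their start sites are shown, with the short motifs searched for. All 8 symbols matched the RefSeq table of start-site windows (build GRCm38.p6), from which the 250 bases before the start were taken. The counts were made on GRCm39 per the submitters' processing notes, so these coordinates belong to the table alone. The table listed 2 windows for H2-K1, of which the first was used. The upstream bases lie at chr17:35262844-35263093 (plus strand) for H2-D1, chr17:34000348-34000597 (minus) for H2-K1, chr17:35438905-35439154 (plus) for H2-Q7, chr17:36032702-36032951 (minus) for H2-T23, chr2:122147437-122147686 (plus) for B2m and chr17:34187306-34187555 (plus) for Tap1. Capitals mark matches, on either strand, of 4 short motifs: GAANNGAAA (interferon-stimulated type), GGGNNTTCC (NF-kappa-B type), TGACG (X2 type) and CCAAT (Y type). Each line reads 5′ to 3′ and ends at the base before the start site.
H2-D1: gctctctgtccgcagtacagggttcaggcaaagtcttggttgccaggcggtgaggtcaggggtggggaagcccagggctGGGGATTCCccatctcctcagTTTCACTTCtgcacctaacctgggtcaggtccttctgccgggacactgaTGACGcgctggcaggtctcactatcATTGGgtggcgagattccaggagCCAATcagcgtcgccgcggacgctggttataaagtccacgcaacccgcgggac
H2-K1: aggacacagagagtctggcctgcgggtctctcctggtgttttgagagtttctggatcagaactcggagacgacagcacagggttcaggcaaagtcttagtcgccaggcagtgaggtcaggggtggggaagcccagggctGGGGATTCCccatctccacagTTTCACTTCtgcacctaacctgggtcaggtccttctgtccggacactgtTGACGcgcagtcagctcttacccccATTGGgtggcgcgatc
H2-Q7: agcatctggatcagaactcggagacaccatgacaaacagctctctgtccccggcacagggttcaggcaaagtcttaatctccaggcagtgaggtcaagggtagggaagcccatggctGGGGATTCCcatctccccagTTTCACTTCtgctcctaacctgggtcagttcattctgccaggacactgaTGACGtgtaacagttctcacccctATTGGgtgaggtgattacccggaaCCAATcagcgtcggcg
H2-T23: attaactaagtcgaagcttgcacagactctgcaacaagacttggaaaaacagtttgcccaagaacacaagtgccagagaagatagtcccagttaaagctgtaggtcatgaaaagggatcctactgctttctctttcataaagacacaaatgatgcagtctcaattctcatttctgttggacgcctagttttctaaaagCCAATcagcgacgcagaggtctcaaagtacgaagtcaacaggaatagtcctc
B2m: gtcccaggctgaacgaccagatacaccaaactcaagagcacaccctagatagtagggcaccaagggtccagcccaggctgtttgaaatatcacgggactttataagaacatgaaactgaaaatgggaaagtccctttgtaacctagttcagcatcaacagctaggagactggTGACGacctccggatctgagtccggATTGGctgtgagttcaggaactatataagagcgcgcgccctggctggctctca
Tap1: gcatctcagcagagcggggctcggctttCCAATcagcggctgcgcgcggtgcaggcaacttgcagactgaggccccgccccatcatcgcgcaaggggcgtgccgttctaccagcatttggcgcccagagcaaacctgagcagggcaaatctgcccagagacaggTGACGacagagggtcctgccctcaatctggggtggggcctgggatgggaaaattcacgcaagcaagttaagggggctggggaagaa
The first 3 lines hold all 4 motifs, in the order NF-kappa-B, interferon, X2 and Y, and no match overlapped another. In H2-D1 the NF-kappa-B match began 171 bases and the interferon match 150 bases before the start site. H2-D1 and H2-K1 were 89.5% identical over aligned bases, H2-D1 and H2-Q7 85.8%, and H2-K1 and H2-Q7 88.7%. H2-T23 was 58.5% to 64.3% identical to these, no more than H2-Q7 was to B2m (64.7%), and held only CCAAT. B2m and Tap1 held TGACG and CCAAT, and so did Psmb9, whose start site lies 226 bases from that of Tap1 on the other strand, so that their windows overlap. Only these 4 patterns were searched for. The B2m line also holds gaaactgaaa and gggaaagtccc, which are like the interferon and NF-kappa-B patterns with a longer gap and were not marked. A line without such capitals is therefore not shown to lack such an element. Psmb8 held none of the 4. Over 27025 promoters of the same length, GAANNGAAA was found in 6.34%, GGGNNTTCC in 4.88%, TGACG in 17.9% and CCAAT in 34.5%, and 10 promoters (0.037%) held all 4. A match describes letters in this window and is not a binding site.

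H2-D1 encodes a classical heavy chain, which shows peptides to cytotoxic T cells. Its level in Col9a1-high cells was 6.28 CPM at E16.5 (5.49 to 7.15), 11.9 CPM at P0 (11.0 to 12.8) and 159 CPM at 13w (155 to 163). In Col9a1-low cells it was 6.65 CPM (5.99 to 7.35), 22.5 CPM (20.8 to 24.2) and 385 CPM (380 to 389). Both classes were low in the embryo and far higher in the adult, and no interval of a later stage overlapped that of an earlier one. In Ptprc-positive cells H2-D1 stood at 419, 407 and 785 CPM, above both Col9a1 classes at every stage. Adult Col9a1-low cells had 49.0% of the leucocyte level, against 1.59% at E16.5.

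H2-K1 encodes the other classical heavy chain. Its level in Col9a1-high cells was 24.8 CPM at E16.5 (23.2 to 26.5), 40.2 CPM at P0 (38.6 to 41.9) and 99.6 CPM at 13w (96.5 to 103). In Col9a1-low cells it was 4.58 CPM (4.04 to 5.17), 9.61 CPM (8.52 to 10.8) and 83.4 CPM (81.3 to 85.7). The Col9a1-high class was the higher at each stage, by much in the embryo and newborn and by little in the adult. Ptprc-positive cells stood above both, at 180, 210 and 464 CPM.

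H2-Q7 encodes a nonclassical heavy chain. It was at 10.5 CPM (9.43 to 11.6), 11.7 CPM (10.9 to 12.6) and 2.58 CPM (2.11 to 3.13) in Col9a1-high cells at E16.5, P0 and 13w. In Col9a1-low cells it was at 3.89, 5.96 and 3.70 CPM. In Col9a1-high cells the adult library was lowest, whereas for H2-D1 and H2-K1 it was highest. Ptprc-positive cells had 3 UMIs (1.26 CPM) at E16.5, 0 UMIs at P0, where a limit of 3 UMIs stands at 10.2 CPM, and 59.0 CPM at 13w.

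H2-T23 encodes a nonclassical heavy chain that natural killer cells recognise. It was below 1 CPM in both classes before adulthood, at 0.881 and 0.754 CPM in Col9a1-high and 0.795 and 0.920 CPM in Col9a1-low cells at E16.5 and P0. At 13w it reached 5.11 CPM (4.44 to 5.86) in Col9a1-high and 18.6 CPM (17.6 to 19.7) in Col9a1-low cells. The adult level was the highest in both classes. Ptprc-positive cells had 32.0 CPM at E16.5, 10.2 CPM from 3 UMIs at P0 and 55.0 CPM at 13w.

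B2m is the light chain shared by the class I heavy chains. Its level was 50.9 CPM (48.6 to 53.2), 48.9 CPM (47.1 to 50.7) and 166 CPM (162 to 170) in Col9a1-high cells, and 74.8 CPM (72.6 to 77.1), 97.5 CPM (93.9 to 101) and 287 CPM (282 to 291) in Col9a1-low cells. E16.5 and P0 overlapped in Col9a1-high cells, and the adult stood above both in each class. Ptprc-positive cells had 427, 468 and 691 CPM.

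**Figure D1:**
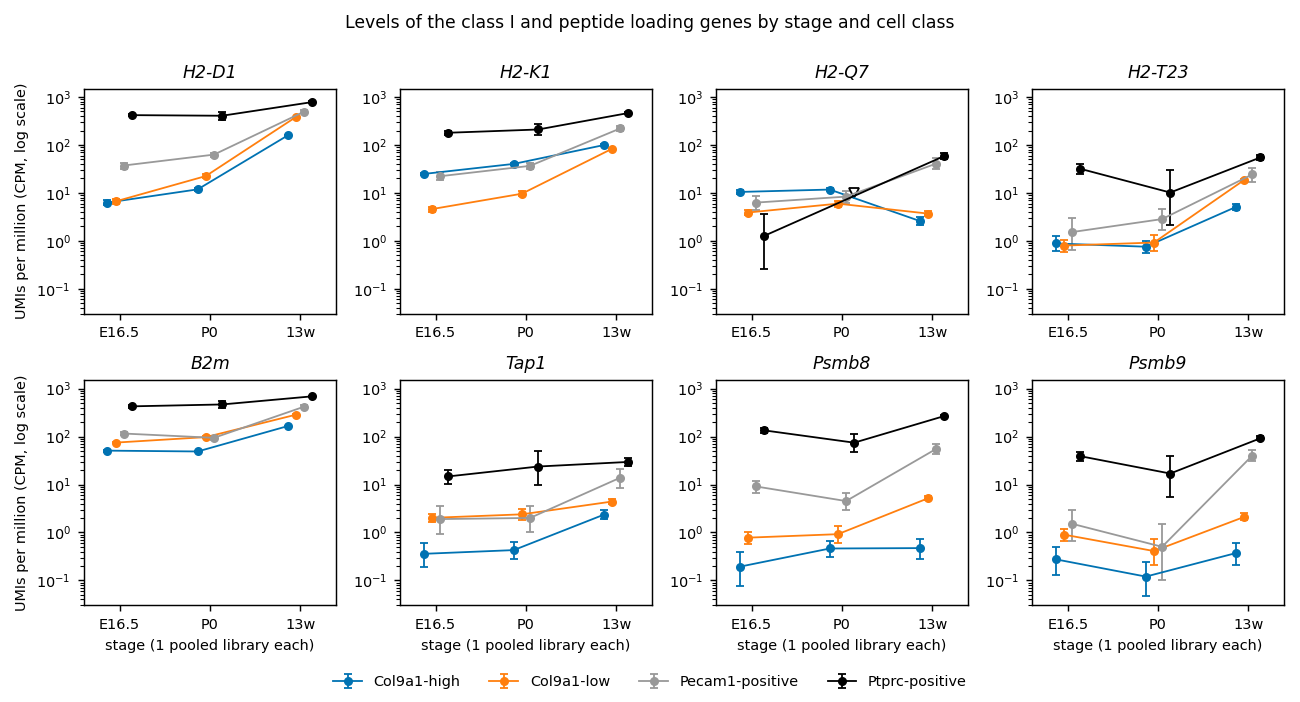
Level in CPM (log axis) of the 8 genes at E16.5, P0 and 13w in 4 cell classes, with exact Poisson intervals as bars; the open triangle marks a limit of 3 UMIs (10.2 CPM) where the count was 0. H2-D1 in Col9a1-low cells goes from 6.65 to 385 CPM, while H2-Q7 in Col9a1-high cells is lowest at 13w and Psmb8 and Psmb9 stay far below the leucocyte reference.

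Tap1, a subunit of the peptide transporter, was low throughout. It was at 0.358, 0.428 and 2.36 CPM in Col9a1-high cells at E16.5, P0 and 13w, from 13, 25 and 95 UMIs, and at 2.02, 2.39 and 4.41 CPM in Col9a1-low cells. The adult was highest in both classes, and no Tap1 value in them reached the 10 CPM needed for a comparison. Ptprc-positive cells had 14.7, 23.7 and 29.6 CPM, the P0 value from 7 UMIs.

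The immunoproteasome genes were low in both Col9a1 classes at every stage. Psmb8 was at 0.193, 0.462 and 0.471 CPM in Col9a1-high cells and at 0.778, 0.920 and 5.18 CPM in Col9a1-low cells. Psmb9 was at 0.275, 0.120 and 0.372 CPM in Col9a1-high cells and at 0.902, 0.409 and 2.11 CPM in Col9a1-low cells. The reference stood far above: Ptprc-positive cells had 135, 74.5 and 269 CPM of Psmb8 and 39.1, 16.9 and 92.3 CPM of Psmb9. Only the adult Col9a1-low values were clear of the earlier stages, and they came down to 1.73 and 0.936 CPM when cells with a UMI of any of 6 further leucocyte or endothelial genes were also left out.

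Between E16.5 and P0 few members differed. In Col9a1-high cells 4 of the 8 reached 10 CPM, and 0 were called higher (background 4.78% of 7678 measured genes) or lower (5.07%). H2-D1 was 1.89-fold and H2-K1 1.62-fold higher at P0, below the ratio of 2, and H2-D1 passed it under 6 of the alternatives tried. In Col9a1-low cells 2 of the 8 reached 10 CPM, and H2-D1 was called higher, by 3.38-fold (log2 1.76, 1.57 to 1.94), while B2m was 1.30-fold higher and not called. H2-D1 reached 10 CPM in the P0 library alone, so the filter favoured this direction. The background there was 5.6% of 8387 genes higher and 7.15% lower. H2-K1 stood at 2.10-fold but under 10 CPM, and was called with either of 2 other scalings.

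Between P0 and 13w the members that could be compared differed in every case. In Col9a1-low cells 4 of the 8 reached 10 CPM and all 4 were called higher, against 9.84% of 8309 measured genes (8.29% were lower). H2-T23 was 20.2-fold higher (log2 4.34, 3.79 to 4.95), H2-D1 17.1-fold (4.10, 3.99 to 4.21), H2-K1 8.68-fold (3.12, 2.94 to 3.30) and B2m 2.94-fold (1.56). H2-D1, H2-K1 and H2-T23 each had a larger ratio in this class than B2m, while H2-Q7 did not reach 10 CPM. In Col9a1-high cells 4 of the 8 reached 10 CPM, of which 3 were called higher (background 6.95% of 7640 genes) and 1 lower (12.1%). H2-D1 was 13.4-fold higher (log2 3.75, 3.63 to 3.86), B2m 3.40-fold (1.76, 1.70 to 1.83) and H2-K1 2.47-fold (1.31, 1.23 to 1.38), and H2-Q7 was 4.55-fold lower (-2.19, -2.50 to -1.89). H2-T23, Tap1, Psmb8 and Psmb9 in Col9a1-high cells, and H2-Q7, Tap1, Psmb8 and Psmb9 in Col9a1-low cells, stayed under 10 CPM in both libraries and were not compared.

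The median log2 ratio over all measured genes was -0.05 in Col9a1-low and -0.31 in Col9a1-high cells for this step, and 2.43 and 1.70 over all 8 members, those under 10 CPM included. In Col9a1-low cells H2-K1 and H2-T23 reached 10 CPM in the adult library alone. H2-Q7 in Col9a1-high cells reached it in the P0 library alone. For each of these genes the filter favoured the direction called. Scaling moved the background: of all calls, 54.3% were higher in Col9a1-low cells, 67.1% after TMM and 68.8% after median-of-ratios scaling, and in Col9a1-high cells 36.4%, 62.1% and 63.1%. Between E16.5 and P0 in Col9a1-low cells the higher share was 43.9%, 61.2% and 59.4%. Across 11 settings, the main one included, the adult ratio of H2-D1 stayed between 3.59 and 4.03 (log2) in Col9a1-high cells. It stayed between 4.02 and 4.27 in Col9a1-low cells, and that of H2-Q7 between -2.49 and -1.41 in Col9a1-high cells.

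Blood cell transcript also differed between the libraries. The 8 neutrophil genes (all detected at 13w, among them S100a8 and S100a9) summed to 7.65, 0.273 and 696 CPM in Col9a1-low cells and to 3.28, 0.360 and 95.6 CPM in Col9a1-high cells at E16.5, P0 and 13w. The 9 leucocyte genes, of which Ptprc alone was at 0 at 13w by the choice of cells, summed to 23.9, 9.34 and 68.0 CPM in Col9a1-low and 4.62, 1.39 and 30.8 CPM in Col9a1-high cells. Monocyte and macrophage genes summed to 12.8, 15.1 and 44.8 CPM in Col9a1-low cells. Other lists were highest at E16.5 in that class. Erythroid genes summed to 322, 4.60 and 3.13 CPM and mast cell genes to 46.8, 0.682 and 0.314 CPM. B cell genes summed to 80.4, 42.7 and 32.4 CPM, of which Ebf1 alone held 75.6, 41.6 and 13.8 CPM. Leaving out every cell with a UMI of Laptm5, Tyrobp, Cd52, Coro1a, Cdh5 or Emcn took the adult Col9a1-low neutrophil sum to 36.3 CPM. H2-D1 was then at 380 CPM against 385 before, B2m at 282 against 287, H2-K1 at 77.4 against 83.4 and H2-T23 at 18.3 against 18.6.

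Members and blood markers also differed in how far below leucocytes they stood. Of 7 members with at least 50 CPM in adult Ptprc-positive cells, the level in adult Col9a1-low cells was 1.93% to 49.0% of the leucocyte level, with a median of 18.0%. H2-D1 had 49.0%, B2m 41.4%, H2-T23 33.8%, H2-K1 18.0% and H2-Q7 6.27%, but Psmb9 had 2.29% and Psmb8 1.93%. The 8 leucocyte genes with that level spanned 0.548% to 3.29% (median 0.756%) and the 8 neutrophil genes 0.123% to 3.25%, so the 4 heavy chains and B2m lay above both lists while Psmb8 and Psmb9 lay within them. Other lists reached further, B cell genes up to 13.7% and class II genes up to 20.6%. In adult Col9a1-high cells B2m had 24.01%, H2-K1 21.5%, H2-D1 20.3%, H2-T23 9.29%, H2-Q7 4.38%, Psmb9 0.403% and Psmb8 0.175%.

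**Figure D2:**
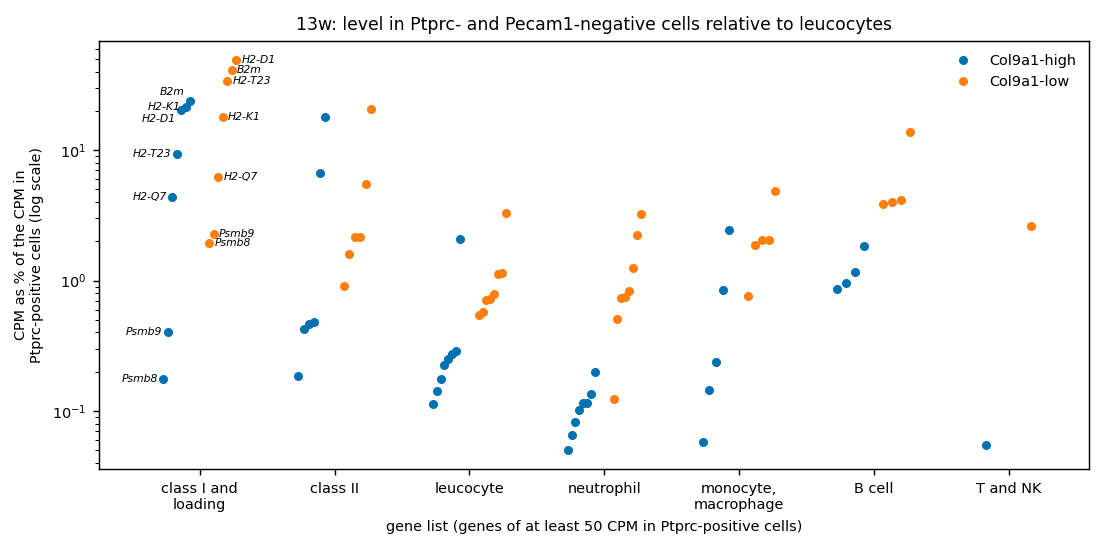
Level in adult Col9a1-high (blue) and Col9a1-low (orange) cells as a percent of the level in adult Ptprc-positive cells (log axis), 1 point per gene of each list with at least 50 CPM in the latter. H2-D1 at 49.0% and B2m at 41.4% lie above the leucocyte list (up to 3.29%) in Col9a1-low cells, and Psmb8 at 1.93% lies within its range.

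Against the leucocyte reference itself, the members measured were lower in cells without Ptprc and Pecam1 at every stage. At E16.5 this held for 7 of 7 (background 16.6% of 9021 genes lower, 21.8% higher), at P0 for 7 of 7 (18.9% of 9136 lower, 11% higher) and at 13w for 8 of 8 (17.2% of 8677 lower, 17.8% higher). Tap1, Psmb8 and Psmb9 reached 10 CPM through the Ptprc-positive cells alone at every stage. So did H2-D1 at E16.5, H2-T23 at E16.5 and P0, and H2-Q7 at 13w, so the filter favoured this direction. H2-Q7 at E16.5 was not measured and lay the other way, at 6.46 against 1.26 CPM, the latter from 3 UMIs. H2-D1 was 64.4-fold lower at E16.5, 26.4-fold at P0 and 2.62-fold at 13w, and B2m 6.53-fold, 7.18-fold and 2.87-fold. Psmb8 was 246-fold, 121-fold and 78.9-fold lower and Psmb9 59.6-fold, 78.2-fold and 63.4-fold. The distance to leucocytes was much smaller in the adult for H2-D1 and B2m, and stayed above 50-fold for the immunoproteasome genes. The make-up of the Ptprc-positive cells differed between the libraries. Their neutrophil genes summed to 27265, 1674 and 84250 CPM, mast cell genes to 1034, 4069 and 36.0 CPM and erythroid genes to 7481, 5462 and 1.55 CPM. The part of this in the ratios was not tested. The P0 reference was 16 cells, and its ratio for H2-T23 (12.6-fold lower, log2 -3.65, -5.26 to -1.34) rests on 3 UMIs. Of all P0 calls 36.8% were higher, 52.8% after TMM and 50.5% after median-of-ratios scaling, and the H2-T23 call ended under both (log2 -3.39 and -3.42).

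Within a library, the Col9a1 classes differed in opposite ways for different members. At E16.5, 3 of the 8 reached 10 CPM, of which 2 were called higher in Col9a1-high cells (background 9.46% of 8385 genes) and 0 lower (14.4%). H2-K1 was 5.42-fold higher (log2 2.44, 2.24 to 2.64) and H2-Q7 2.69-fold higher (1.43, 1.18 to 1.67), while B2m was 1.47-fold lower and not called. H2-Q7 sat at the limit of 10 CPM and was not measured under 4 alternatives. H2-K1 and H2-Q7 reached 10 CPM in Col9a1-high cells alone, so the filter favoured this direction. Tap1, Psmb8 and Psmb9, under 10 CPM in both classes, lay lower in Col9a1-high cells (log2 -2.49, -2.01 and -1.71). The median log2 ratio over all 8 members was -0.32, against -0.16 over all measured genes. Col9a1-high cells of the embryo thus held more H2-K1 and H2-Q7 per UMI than the Col9a1-low cells of the same library, and about as much H2-D1.

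At P0, 4 of the 8 were measured, of which 1 was called higher in Col9a1-high cells (10.8% of 8185 genes) and 0 lower (13.9%). H2-K1 was 4.19-fold higher (log2 2.07, 1.89 to 2.25) and H2-Q7 1.97-fold higher, whereas H2-D1 was 1.90-fold and B2m 1.99-fold lower. The last 3 stood just under the ratio of 2, and all were past a ratio of 1.5. H2-K1 and H2-Q7 again reached 10 CPM in Col9a1-high cells alone, and the median over all 8 members was -0.96 (log2). At 13w, 4 of the 8 were measured, of which 0 were called higher in Col9a1-high cells (3.81% of 7751 genes) and 2 lower (10.1%). H2-T23 was 3.64-fold lower (log2 -1.86, -2.08 to -1.65) and H2-D1 2.42-fold lower (-1.27, -1.31 to -1.23), and H2-K1 was 1.19-fold higher. The H2-D1 call ended under TMM (log2 -0.94) and under median-of-ratios scaling (-0.93). H2-T23 reached 10 CPM in Col9a1-low cells alone, and the median over all 8 members was -1.09 (log2).

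These comparisons are of shares of UMIs, and Col9a1-high cells were deeper. In UMIs per cell, adult H2-D1 was at 4.05 (3.95 to 4.15) in Col9a1-high and 4.28 (4.22 to 4.33) in Col9a1-low cells, which is close to equal. H2-K1 was at 2.54 and 0.927 UMIs per adult cell and B2m at 4.23 and 3.18, both higher in Col9a1-high cells. At E16.5, H2-K1 was at 0.929 and 0.0804 UMIs per cell. The share of higher genes among all calls was 39.6%, 43.7% and 27.4% in the 3 libraries in turn, against 59.0%, 60.2% and 52.8% after TMM and 63.7%, 60.9% and 53.0% after median-of-ratios scaling.

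Ordering cells by Col9a1 showed where in its range the members differed. At P0, H2-K1 was at 7.76 CPM in cells without Col9a1, 11.4 CPM above 0 to 3 UMIs per 10000, 20.8 CPM from 3 to 10, 42.2 CPM from 10 to 30 and 51.6 CPM from 30 on. At E16.5 the same bins held 5.20, 3.87, 15.2, 31.4 and 17.4 CPM, the last from 39 cells. At 13w they held 86.3, 77.6, 97.3, 102 and 91.8 CPM, so the higher H2-K1 level along Col9a1 in the P0 library was not seen in the adult one. H2-D1 went the other way at 13w, with 420, 312, 188, 135 and 135 CPM. B2m was highest in cells without Col9a1 at every stage, at 87.0, 104 and 312 CPM, and lowest from 30 on, at 50.2, 41.6 and 141 CPM.

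**Figure D3:**
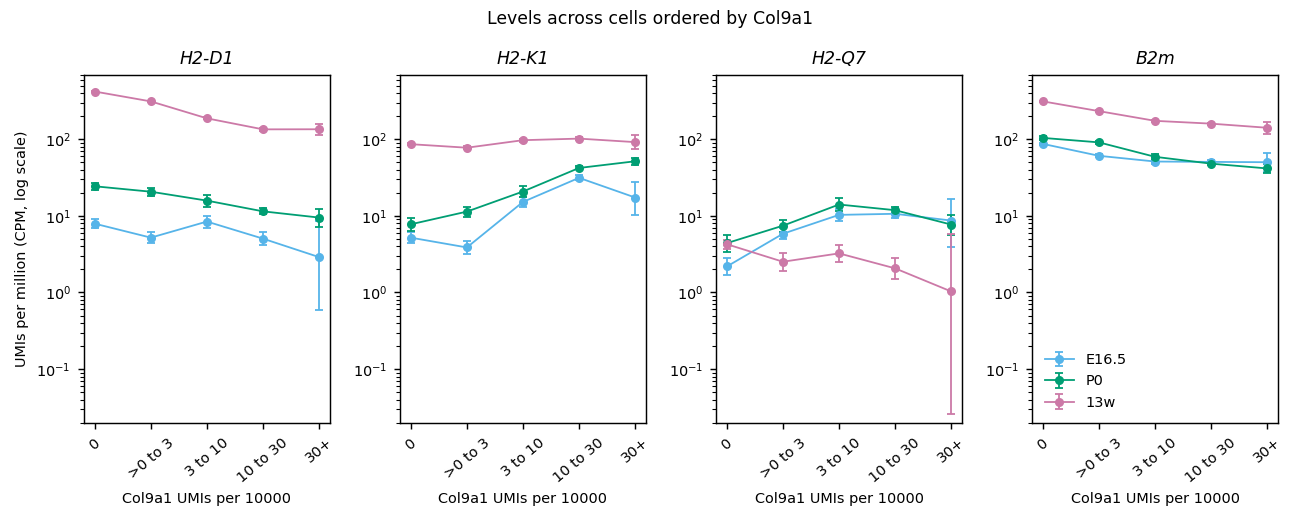
CPM (log axis, exact Poisson intervals) of H2-D1, H2-K1, H2-Q7 and B2m in cells without Ptprc or Pecam1, in 5 bins of Col9a1 UMIs per 10000, with 1 line per stage. H2-K1 goes from 7.76 to 51.6 CPM along the bins at P0 and stays between 77.6 and 102 CPM at 13w, where H2-D1 goes from 420 to 135 CPM.

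Gates on zone markers gave the same contrast in the adult condyle. H2-D1 was at 436 CPM in 2910 cells with Dpt, a fibrous matrix gene, at 411 CPM in 185 cells with Prg4, the lubricin gene of the joint surface, and at 364 CPM in 1388 cells with Cilp2. It was at 210 CPM in 730 cells with the osteoblast gene Bglap and at 122 CPM in 438 cells with Col10a1, the collagen of hypertrophic cartilage. Surface and fibrous gates were high and hypertrophic cells lowest, and H2-T23 followed with 22.1, 25.2 and 17.3 CPM against 9.48 and 4.41 CPM. H2-K1 differed little between these gates, at 74.7, 87.4, 83.3, 97.5 and 89.0 CPM. B2m was highest in 62 cells with Pthlh (499 CPM), in 229 with Sfrp2 (433 CPM) and in Prg4 cells (421 CPM), and lowest in Col10a1 cells (143 CPM). The gates overlap, and S100a8 was between 12.9 and 43.0 CPM in the 7 gates named here, and at 332 and 829 CPM in the Mki67 and Top2a gates.

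**Figure D4:**
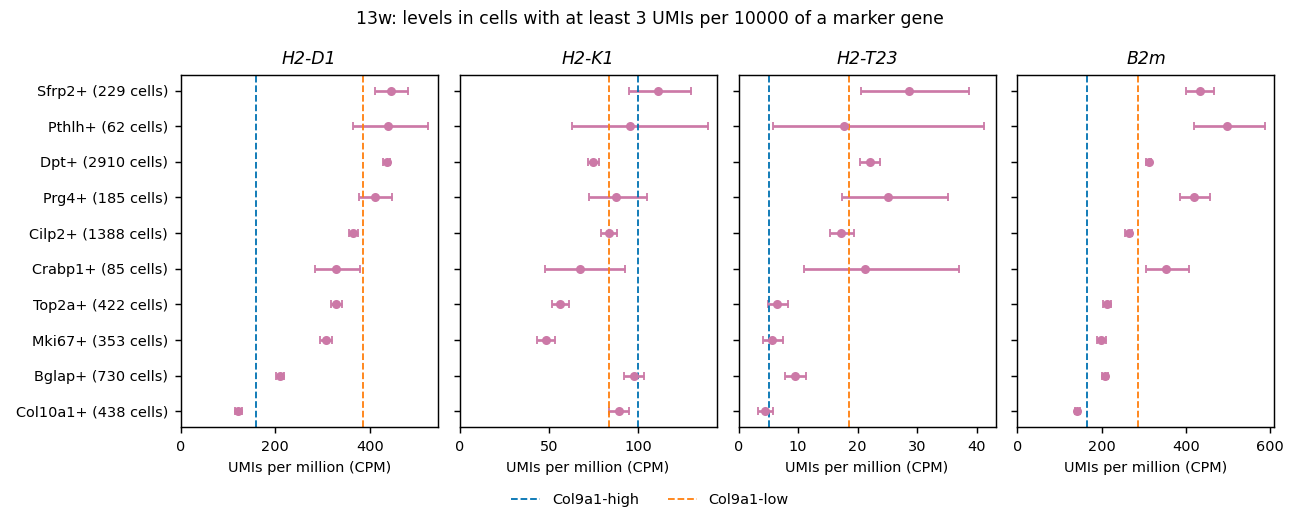
CPM (linear axis from 0, exact Poisson intervals) of H2-D1, H2-K1, H2-T23 and B2m in adult cells with at least 3 UMIs per 10000 of a marker gene, with dashed lines at the Col9a1-high and Col9a1-low levels. H2-D1 is lowest in Col10a1 cells (122 CPM) and stands at 436 CPM in Dpt cells, while H2-K1 is lowest in Mki67 cells (48.2 CPM), the gate of the cell cycle gene Mki67.

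The share of cells with a UMI was compared after thinning each cell to 3000 UMIs, which left out 8 to 135 cells per class at E16.5, 1 to 75 at P0 and 28 to 231 at 13w. A UMI of any of the 4 heavy chains was found in 10.7%, 17.0% and 53.5% of Col9a1-high cells at E16.5, P0 and 13w, and in 3.60%, 10.4% and 73.4% of Col9a1-low cells. Ptprc-positive cells had 83.1%, 86.7% and 95.7%. Adult detection was thus widespread in both classes, and the classes traded places between P0 and 13w. A heavy chain together with B2m was found in 43.1% of adult Col9a1-low and 21.5% of Col9a1-high cells, against 1.10% and 1.06% at E16.5. Psmb8 or Psmb9 was found in 1.35% and 0.393% of adult Col9a1-low and Col9a1-high cells. The leucocyte gene Tyrobp was found in 0.519% and 0.393% of the same cells, lower in the first class and equal in the second, and S100a8 in 4.15% and 2.09%. The part of free leucocyte RNA in such low shares was not tested. Without thinning, H2-D1 was found in 90.9% of adult Col9a1-low and 89.5% of Col9a1-high cells, and Tyrobp in 1.10% and 1.07%.

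Correlations between members over single cells are given as a description. Over thinned cells the Spearman correlation between members found in enough cells was between -0.03 and 0.11 in the Col9a1 classes, the highest for H2-D1 with B2m over 5784 adult Col9a1-low cells. In 303 adult Ptprc-positive cells it reached 0.49 for H2-K1 with B2m. At 3000 UMIs most cells hold 0 or 1 UMI of a member, which limits these values.

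Set against the constitutive subunits they replace, Psmb8 and Psmb9 were rare in both Col9a1 classes. Per 100 UMIs of Psmb5, Col9a1-low cells had 0.279, 0.481 and 2.46 UMIs of Psmb8 at E16.5, P0 and 13w, and Col9a1-high cells 0.0647, 0.212 and 0.262. Ptprc-positive cells had 42.9, 34.4 and 132, far above both classes. Per 100 UMIs of Psmb6, Psmb9 was at 0.282, 0.147 and 0.892 in Col9a1-low cells and at 13.0, 5.05 and 46.0 in Ptprc-positive cells. Psmb10, the third inducible subunit, differed from both: per 100 UMIs of Psmb7 it was at 14.7, 18.3 and 14.1 in Col9a1-high, 15.4, 7.73 and 11.9 in Col9a1-low and 26.0, 18.4 and 67.7 in Ptprc-positive cells. For Psmb10 the Col9a1 classes were thus much nearer to Ptprc-positive cells than for Psmb8 and Psmb9.

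**Figure D5:**
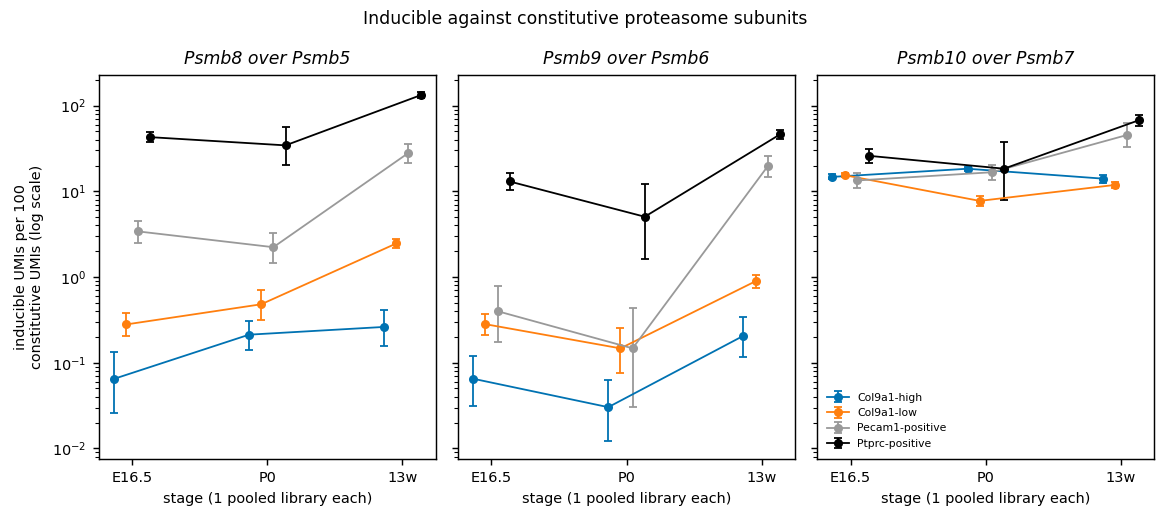
UMIs of an inducible proteasome subunit per 100 UMIs of the constitutive subunit it replaces (log axis), with exact conditional binomial intervals, by stage and cell class. Psmb8 over Psmb5 reaches 2.46 in adult Col9a1-low and 132 in adult Ptprc-positive cells, and Psmb10 over Psmb7 lies between 7.73 and 18.3 in the Col9a1 classes.

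In cells with Pecam1 the adult library was also highest for the members given here. H2-D1 was at 37.2, 62.9 and 496 CPM in them, H2-K1 at 22.2, 36.6 and 221 CPM and H2-T23 at 1.52, 2.84 and 24.3 CPM. Psmb8 was at 9.12, 4.51 and 55.5 CPM and Psmb9 at 1.52, 0.502 and 40.3 CPM, so adult Pecam1-positive cells were above either Col9a1 class. They also held blood cell transcript: at 13w the neutrophil genes summed to 3015 CPM, the leucocyte genes to 442 CPM and the B cell genes to 431 CPM, beside 796 CPM of the endothelial genes. Skeletal transcript was far above the endothelial sum at each stage. Chondrocyte genes summed to 16748, 38496 and 20612 CPM and fibroblast genes to 4679, 10199 and 27115 CPM in these cells. The part of these in the Pecam1-positive levels was not tested.

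The other genes of the pathway were read from 11 lists of 151 genes, 8 of which were not found under their symbol. The counts that follow for P0 against 13w stand beside 9.84% of all measured genes called higher and 8.29% lower in Col9a1-low cells, and 6.95% higher and 12.1% lower in Col9a1-high cells. With so few genes measured per list, 1 or 2 calls are not read as a difference from that background. Of 14 further class I heavy chain genes in the table, 3 reached 10 CPM between P0 and 13w in Col9a1-low cells and 1 was called, H2-T22, a nonclassical heavy chain, 2.19-fold higher (12.1 and 26.6 CPM). It was the 1 called in Col9a1-high cells too, among 2 measured (6.20 and 19.9 CPM). Fcgrt, the heavy chain of the neonatal Fc receptor, was at 51.2 and 95.1 CPM in Col9a1-low cells at E16.5 and P0, not called, and at 22.7 and 61.7 CPM in Col9a1-high cells, where it was called higher. H2-Q4 was at 7.03 CPM and H2-M3 at 7.42 CPM in adult Col9a1-low cells, both under 10 CPM.

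Of 10 peptide loading and trimming genes, 7 were measured between P0 and 13w in Col9a1-low cells, 2 were called higher (9.84% of all genes) and 0 lower (8.29%). Tapbp, which bridges the transporter and the heavy chain, was 2.91-fold higher (16.7 and 48.6 CPM), and Ide, a peptidase, was 2.03-fold higher (14.6 and 29.7 CPM). In Col9a1-high cells 1 of 7 was higher, Tapbp again (9.42 and 25.2 CPM), and 3 were lower, among them the general chaperones Calr (1770 and 584 CPM) and Canx (350 and 130 CPM). Tap2, the partner of Tap1, was at 0.818 CPM at P0 and 6.63 CPM at 13w in Col9a1-low cells, below the limit. Calr was not called in Col9a1-low cells, at 858, 798 and 649 CPM. Tapbp, dedicated to class I, and the general chaperones lay on opposite sides in adult Col9a1-high cells.

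Of 4 further immunoproteasome and activator genes, 0 were called between P0 and 13w in Col9a1-low cells, where Pomp, the assembly factor, was at 175 and 187 CPM. Psmb10 was called lower at P0 than at E16.5 in the same class (23.4 and 9.20 CPM) and lower at 13w than at P0 in Col9a1-high cells (24.01 and 10.1 CPM). The 7 constitutive beta subunits gave 0 calls in Col9a1-low cells in either step, with Psmb1 at 376, 360 and 271 CPM, and 2 lower calls, Psmb4 and Psmb6, in Col9a1-high cells between P0 and 13w.

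Of 14 regulators of class I transcription, 6 were measured between P0 and 13w in each class, and the same 2 genes were called higher in both (9.84% and 6.95% of all genes). Relb, a subunit of NF-kappa-B, was at 15.1 and 35.4 CPM in Col9a1-low and at 7.19 and 17.5 CPM in Col9a1-high cells. Irf1, an interferon-induced activator, was at 22.6 and 46.3 CPM and at 10.6 and 26.1 CPM. Rela, another NF-kappa-B subunit, was called higher at P0 than at E16.5 in Col9a1-low (19.4 and 46.4 CPM) and Col9a1-high cells (16.3 and 39.5 CPM). Nlrc5, the class I transactivator, was at most at 0.254 CPM in the Col9a1 classes and at 3.31 CPM in adult leucocytes.

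Of 12 interferon receptors and kinases, 10 were measured between P0 and 13w in Col9a1-low cells and 2 were called higher (9.84% of all genes), the receptor chain Il10rb (5.79 and 13.2 CPM) and the inhibitor Socs1 (25.2 and 56.4 CPM). Ifngr1, a chain of the interferon gamma receptor, was higher at P0 than at E16.5 (42.5 and 98.4 CPM) and stood at 63.4 CPM at 13w. Of 11 interferon and sensor genes in the table, 0 were measured between P0 and 13w. Ifnb1, Ifna4 and Ifnl3 had 0 UMIs in both classes at every stage, and Cgas, a DNA sensor, was at 16.2, 8.90 and 5.61 CPM in Col9a1-low cells. Tmem173, the adaptor that acts after it, was at 9.34 and 2.99 CPM at P0 and 13w.

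Of 28 type I interferon response genes in the table, 5 were measured between P0 and 13w in Col9a1-low cells, 2 were called higher (9.84% of all genes) and 1 lower (8.29%). Ifi35 was 3.03-fold higher (6.03 and 18.3 CPM) and Ifi27 2.45-fold higher (69.5 and 170 CPM), whereas Ifi27l2a was 4.52-fold lower (41.3 and 9.16 CPM) after a 3.12-fold higher value at P0 than at E16.5. In Col9a1-high cells 3 were measured and 2 were called higher, Ifi27 and Ifi35. Ifit1, Oas2 and Usp18, which are sensitive to interferon, stayed under 1 CPM in both classes at every stage.

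Of 19 interferon gamma response genes in the table, 4 were measured between P0 and 13w in Col9a1-low cells and all 4 were called higher (9.84% of all genes). The surface protein genes Ly6c1 (0.750 and 32.6 CPM), Ly6a (3.44 and 59.1 CPM) and Ly6e (17.7 and 78.5 CPM) led, and Icam1 was the other. In Col9a1-high cells Ly6e alone was measured and called higher. The guanylate-binding and Irg family genes of the list, more specific to the cytokine, did not reach 10 CPM, with Gbp2 at 6.78 CPM in adult Col9a1-low cells. Of the 4 called, Ly6c1, Ly6a and Icam1 reached 10 CPM in the adult library alone, so the filter favoured this direction.

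Class II genes serve presentation to helper T cells. Before adulthood 3 of 10 were measured between the Col9a1 classes, and all 3 were called higher in Col9a1-high cells, as H2-K1 was. Over all genes 9.46% were higher at E16.5 and 10.8% at P0. All 3 reached 10 CPM in Col9a1-high cells alone, so the filter favoured this direction. H2-Ab1 was at 14.6 CPM at E16.5 and 16.0 CPM at P0 in Col9a1-high cells but at 0.813 and 0.988 CPM in Col9a1-low cells, a log2 difference of 4.17 and 4.02. The peptide-exchange genes H2-DMb1 and H2-DMa lay the same way, H2-DMb1 at 15.8 and 17.4 CPM against 3.91 and 1.94 CPM, and H2-DMa at 14.3 and 25.3 CPM against 4.03 and 2.97 CPM. At 13w H2-Ab1 stood at 58.7 CPM in Col9a1-high and 67.2 CPM in Col9a1-low cells. Its partner chain H2-Aa was at 1.24 and 4.29 CPM and the invariant chain gene Cd74 at 3.25 and 16.4 CPM in the same classes. Between P0 and 13w 3 of 10 were measured and 3 called higher in Col9a1-low cells (H2-Ab1, H2-DMb1 and Cd74; 9.84% of all genes), each through the adult library alone, where Cd74 rests on 2 UMIs at P0 (log2 7.91, 6.05 to 10.95). Under the stricter gate Cd74 was at 0.952 CPM and H2-Ab1 at 62.4 CPM in that class.

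Of 14 ligands of natural killer and T cell receptors, 4 were measured between P0 and 13w in Col9a1-low cells and Vsir, an inhibitory ligand, was the 1 called higher (10.9 and 29.5 CPM; 9.84% of all genes). It was called higher at P0 than at E16.5 too (from 1.61 CPM), and Nectin2 was called lower (15.0 and 5.45 CPM). Cd274 was at most at 0.194 CPM in either class.

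Across 12 points (4 cell classes at 3 stages), the genes outside the 8 whose log2(CPM + 1) was most like the mean of the members were Plac8 (Pearson r 0.968), Hmga1 (0.961), Wfdc21 (0.958), Ly6c2 (0.956) and Lcn2 (0.955), among 10316 genes. Plac8, Wfdc21, Ly6c2 and Lcn2 were highest in adult Ptprc-positive cells, at 979, 941, 572 and 2148 CPM, and at most at 14.4 CPM in the Col9a1 classes. Of the members themselves, 7 had r between 0.904 and 0.962 with the mean they belong to, and H2-Q7 had 0.234. The points share libraries and depth, so these values describe the profile and nothing further.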

How the data were processed

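The deposited tables hold whole-number UMI counts of each gene in each droplet, made by the authors on GRCm39 per the submitters' processing notes; per the file headers the software was Cell Ranger 6.1.2. They carry no normalisation. The 8 genes, the 11 pathway lists and the 13 marker lists were chosen with earlier results of these data known.

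Counts were summed over the cells of a class and divided by the class total. With 1 library per stage no test was possible, so ratios carry exact conditional binomial intervals, levels exact Poisson intervals and shares Clopper-Pearson intervals, all at 95%. The E16.5 library held 103827875 UMIs, the P0 library 98486931 and the adult library 115836876. Pathway genes were named by rule: from each list up to 3 called genes with the largest log2 ratio between adjacent stages in Col9a1-low cells, or the most abundant gene where none was called. The 5 genes of like profile come from those reaching 10 CPM at any of the 12 points, without mitochondrial, ribosomal, haemoglobin, sex-linked marker and predicted genes. Other genes named for contrast were chosen after their values were seen. Scrublet's automatic threshold marked 5, 1 and 0 cells and was taken not to have worked, so no doublets were removed. An alternative left out the 181, 146 and 572 highest scores. Other alternatives varied the Col9a1, mitochondrial, level and ratio limits, the leucocyte gate, cell weighting, thinning and scaling (TMM factors of edgeR 4.0.16 and size factors of DESeq2 1.42.0, used for scaling only). Scripts were tested on simulated data. Tools were Python 3.11.15, numpy 2.4.6, scipy 1.17.1, pandas 2.3.3, scanpy 1.11.5, biopython 1.88 and R 4.3.3.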

Additional observations from a re-analysis of the deposited data

How the results depend on the processing

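No paired analysis was possible because each stage is 1 library, and for the same reason no replicate could be left out. The counts recomputed were of members called, of members highest at 13w and of members found in more cells at 13w than at P0. Of these counts, 109 stayed within 1.5 times and 30 moved further. Of the ratios of called members 325 stayed called and 12 did not. Between E16.5 and P0 in Col9a1-high cells the count of 0 became 1 (H2-D1) with a Col9a1 limit of 1 or 10, after removal of high Scrublet scores, with the stricter gate, with equal weight per cell and after thinning, 1 (Psmb8) without a CPM minimum, and 2 at a ratio of 1.5. In Col9a1-low cells the count of 1 became 2 with TMM or median-of-ratios scaling and 3 without a CPM minimum. Between P0 and 13w in Col9a1-high cells 4 became 7 without a CPM minimum. Between the Col9a1 classes at E16.5, 2 became 1 with a limit of 1, after Scrublet removal, with equal weight and after thinning, since H2-Q7 was then under 10 CPM, and 5 without a minimum. At P0, 1 became 2 with a limit of 1, with at most 5% mitochondrial UMIs, after Scrublet removal and with either scaling, 3 with equal weight, after thinning or without a minimum, and 4 at a ratio of 1.5. At 13w, 2 became 1 with either scaling and 4 without a minimum. Against leucocytes at P0, 7 became 4 after thinning, and 6 with either scaling, with equal weight and with 2 Ptprc UMIs, without H2-T23. Between P0 and 13w in Col9a1-low cells 4 became 6 without a minimum (Psmb8 and Psmb9). The direction of every ratio called between P0 and 13w held in the settings run. Tap1, Psmb8 and Psmb9 had 7 to 346 UMIs per Col9a1 class, and depth limits what can be said of them.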

Other observations

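Among the 10 marker gates, the cell cycle gates had the highest H2-Q7 level at P0. H2-Q7 was at 18.05 CPM (15.2 to 21.2) in 328 cells with Mki67 and at 16.98 CPM in 411 cells with Top2a, another cell cycle gene, against 5.96 CPM in all Col9a1-low and 11.7 CPM in all Col9a1-high cells. At E16.5 it was at 8.97 CPM in 678 Mki67 cells, beside 9.10 CPM in 335 Col10a1 cells. H2-K1 was low in Mki67 cells, at 3.67 CPM at E16.5 and 9.52 CPM at P0, so the 2 heavy chain genes that were higher in Col9a1-high cells of the embryo lay at different levels there.

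Isg15, a type I interferon response gene, was at 13.7 CPM in Col9a1-high cells at E16.5 and at 3.56 and 3.03 CPM at P0 and 13w, called lower at P0 (log2 -1.94, -2.18 to -1.70). H2-DMa was called lower at 13w than at P0 in Col9a1-high cells (25.3 and 4.37 CPM, log2 -2.53, -2.77 to -2.31), while H2-Ab1 and H2-DMb1 were called higher there.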
